A study of Mus musculus with 6 samples.

Results

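The imprinted Meg3, Rian, Mirg and Dio3 region was taken as chr12:109400000-110350000 of the mm10 mouse genome. Its members were all lncRNA transcripts of the deposited table whose locus lay within these limits, 35 of 18573 transcripts. They carried 21 assembled gene IDs and listed 17 different loci. Each was assigned to Meg3, Rian, Mirg or Dio3 by the gene column of the table where that named one of these genes, and otherwise to the nearest of them by position. The gene column named Meg3 for 1 transcript and Mirg for 7, and it named Rian and Dio3 for none. The Meg3 part held 2 transcripts, the Rian part 14, the Mirg part 14 and the Dio3 part 5. No member overlapped the annotated spans of Rian or Dio3 themselves, so those labels stand for the neighbourhood of each gene and not for the gene.

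The study compared spermatogonial stem cells (SSCs), the stem cells of the male germline, with female germline stem cells (FGSCs), their counterpart from the ovary. The labels give 3 libraries of SSCs from testes of C57BL/6 mice aged 3 to 5 days and 3 libraries of FGSCs from ovaries of C57BL/6 mice aged 6 days. The methods of the study give these ages the other way round. Where the labels give C57BL/6, the methods describe both cell types as coming from pooled Ddx4-Cre; mT/mG mice, in which Cre under the germ cell promoter of Ddx4 switches a membrane reporter from tdTomato to EGFP, and as sorted for GFP and then selected on laminin. By the methods both cell types thus shared the reporter alleles and the sort, and which source is right on strain and age was not settled here. RNA depleted of ribosomal RNA was sequenced as strand-specific libraries, and each transcript of the table has 1 FPKM (fragments scaled to transcript length and library size) in SSCs and 1 in FGSCs. The table also holds columns of the authors' own test, which were not used here. Without values of single libraries, differences are described here with neither an SD nor a test, and the depth behind a transcript is unknown. None of the 35 marker genes looked for (germ cells, Sertoli, Leydig, peritubular, granulosa and endothelial cells, macrophages) named a transcript of this lncRNA table, and the labelled cell types could therefore not be checked in it. In such bulk samples, fewer expressing cells and less RNA per cell cannot be told apart.

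The region is one of the large imprinted clusters of mammals. On the maternal chromosome it gives rise to noncoding RNAs only: Meg3, Rian, the host of a row of C/D box snoRNAs, and Mirg, the host of a large cluster of miRNAs. On the paternal chromosome it expresses the protein-coding genes Dlk1, Rtl1 and Dio3, and a control region between Dlk1 and Meg3 carries DNA methylation that is laid down in the male germline and is missing from oocytes.

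The table holds newly assembled transcripts only. Annotated isoforms of Meg3, Rian and Mirg and the mRNAs of Dlk1, Rtl1 and Dio3 were not used here, and the values below describe new isoforms and their neighbours, not the total level of a gene. Where several transcripts list the same locus, the coordinates are those of the shared locus, and isoforms of it share reads.

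The first sequences shown are those of compact loci that occurred once in the genome (at 90% identity over 80% of their length), were among the highest values of the region in SSCs and were listed at 0 in FGSCs. The locus of TCONS_00036901 (gene ID XLOC_013169) spans chr12:109506032-109506248, inside the annotated lincRNA Gm34081 and 34753 bp before Meg3. The locus of TCONS_00034236 (XLOC_011842) lies 1335 bp before the annotated start of Rian, and its first 300 bases are chr12:109602279-109602578. Both are given on the plus strand of GRCm38.p6, the assembly behind mm10, with CpG dinucleotides in capitals. The table gives no strand for them. Their loci, of 217 and 327 bp, lie within the range of fragment lengths that the methods of the study give. How this affected their FPKM was not tested.

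TCONS_00036901: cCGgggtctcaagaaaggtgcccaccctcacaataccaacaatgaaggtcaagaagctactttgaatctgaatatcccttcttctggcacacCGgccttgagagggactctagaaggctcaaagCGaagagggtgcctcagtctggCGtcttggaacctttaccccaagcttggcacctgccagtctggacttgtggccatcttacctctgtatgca
TCONS_00034236: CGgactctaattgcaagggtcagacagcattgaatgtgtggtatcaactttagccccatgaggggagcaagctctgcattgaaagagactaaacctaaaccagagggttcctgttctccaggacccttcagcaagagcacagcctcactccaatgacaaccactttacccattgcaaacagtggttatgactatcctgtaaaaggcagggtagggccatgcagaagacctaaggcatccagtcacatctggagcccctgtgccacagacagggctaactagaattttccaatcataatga

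Below them are the RefSeq promoters, from 250 bases before to 50 after the annotated start, of the named genes at which the table places new isoforms. For Meg3, RefSeq gives a second start whose window (chr12:109545148-109545447) is not printed. The Meg3 promoter shown (chr12:109540746-109541045) stands at the start of the locus with the highest SSC value of the region, and the Mirg promoter (chr12:109734731-109735030) lies inside the locus whose isoforms were all higher in FGSCs as deposited. CpG dinucleotides are again in capitals.

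Meg3: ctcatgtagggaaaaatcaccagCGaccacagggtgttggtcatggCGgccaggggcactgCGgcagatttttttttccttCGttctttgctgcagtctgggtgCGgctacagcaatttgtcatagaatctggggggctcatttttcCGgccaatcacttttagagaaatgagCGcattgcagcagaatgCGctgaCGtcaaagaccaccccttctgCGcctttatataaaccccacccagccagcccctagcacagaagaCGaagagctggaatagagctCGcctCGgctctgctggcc
Mirg: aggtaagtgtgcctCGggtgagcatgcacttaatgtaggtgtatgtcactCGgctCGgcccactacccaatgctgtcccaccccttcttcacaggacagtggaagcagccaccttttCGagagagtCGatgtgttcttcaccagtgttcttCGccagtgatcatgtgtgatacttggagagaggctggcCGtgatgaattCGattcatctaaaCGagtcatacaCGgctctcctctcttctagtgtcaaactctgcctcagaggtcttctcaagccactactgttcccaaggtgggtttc

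The printed Meg3 window held 13 CpG dinucleotides, that of the other Meg3 start held 1, and the Mirg window held 10, beside a median of 7 over 32851 promoters of the same length. Of these, 37.9% had at least as many as the printed Meg3 window. The Dio3 window held 25, and that of Rian held 0. The motif TGCCGC, which the imprint-protecting factor ZFP57 is known to recognise when methylated, was searched on both strands. It occurred once in the printed Meg3 window, as GCGGCA on the plus strand from position 61, and not in the window of the other Meg3 start or in those of Rian, Mirg or Dio3. The share of all promoters with a match was 11.6%, and a match of these letters is a description, not a binding site.

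The mature miRNAs that the reference lists within the loci that the gene column names after a miRNA are shown last. The Mir666 and Mir654 loci among these stand between the stretch higher in SSCs and the Mirg locus. For Mir376c only miR-376c-5p was listed, so the set may be incomplete. The seed (bases 2 to 8) is in capitals. All 8 seeds differed, so these miRNAs do not form one seed family.

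mmu-miR-882: aGGAGAGAguuagcgcauuagu
mmu-miR-666-5p: aGCGGGCAcagcugugagagcc
mmu-miR-666-3p: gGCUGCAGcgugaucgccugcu
mmu-miR-543-5p: aAGUUGCCcgcguguuuuucg
mmu-miR-543-3p: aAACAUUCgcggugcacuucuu
mmu-miR-376c-5p: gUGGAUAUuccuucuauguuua
mmu-miR-654-5p: uGGUAAGCugcagaacaugugu
mmu-miR-654-3p: uAUGUCUGcugaccaucaccuu

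Of these, miR-882 lies in the snoRNA locus past Rian, miR-666 and miR-543 lie in the Mir666 locus, and miR-376c and miR-654 lie in the Mir654 locus. Mature miRNAs themselves were not measured here. The Mirg locus beyond them held 20 RefSeq miRNA genes with 38 mature products and 37 different seeds.

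Along the chromosome, the region fell into a stretch higher in SSCs, a short stretch with both directions and a stretch mostly higher in FGSCs. In the short stretch, at the Mir666 and Mir654 loci, 3 transcripts were higher in SSCs, by up to 3.43-fold, and 1 was slightly higher in FGSCs. All 17 transcripts from the Meg3 side up to the Mir666 locus had the higher value in SSCs. All 7 new isoforms of Mirg, the miRNA host gene, had the higher value in FGSCs as deposited, although TCONS_00034345 among them turned to SSCs with equal medians or quantile normalization. Of these 7, 3 stayed below 0.5 FPKM in both cell types, and 64% of all transcripts of the table were higher in FGSCs. Of the 7 transcripts past Mirg, 6 had the higher value in FGSCs. With equal medians, obtained by rescaling the SSC values, the Mir666 transcript TCONS_00034317 also turned to SSCs. The other 33 members kept their direction under both scalings, but many of them could not have turned. Values listed at 0 stayed at 0, which fixed the 8 members at 0 in SSCs and the 6 at 0 in FGSCs. Equal medians raised all SSC values by a factor of 1.28, which could not turn the 21 members already higher in SSCs. The limits of these stretches were drawn after the values were seen.

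**Figure D1:**
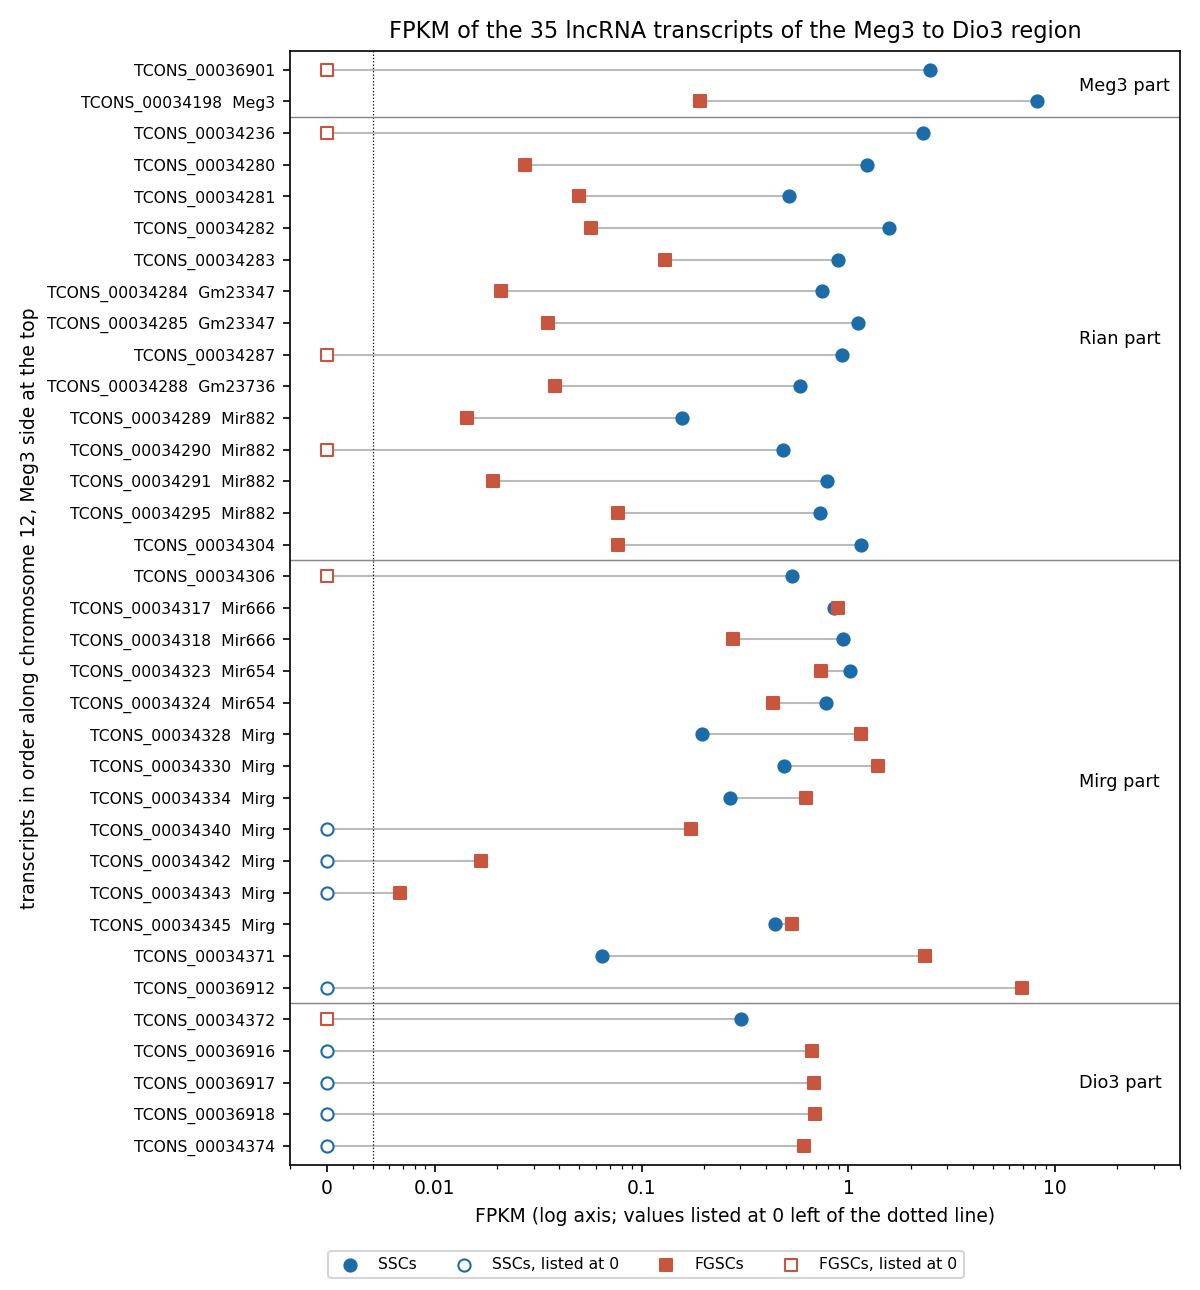
FPKM on a log axis for each of the 35 transcripts, in order along the chromosome with the Meg3 side at the top. Circles are SSCs, squares are FGSCs and open symbols left of the dotted line are values listed at 0, with SSCs to the right for the first 17 transcripts and FGSCs to the right for the Mirg isoforms (as deposited; TCONS_00034345 turns with other scalings).

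A transcript was called past the fold where log2(FPKM + 0.5) differed by more than 1 between SSCs and FGSCs and the FPKM was at least 0.5 in SSCs or FGSCs. This is a limit of size with no test. A transcript listed at 0 in one cell type and above 0.5 FPKM in the other is called by construction. In the region 29 of 35 transcripts passed the filter on low values. Of these, 14 were called higher in SSCs, beside 23.2% of the 12019 transcripts of the whole table that passed. Another 7 were called higher in FGSCs, beside 31%, and 8 passed without a call, where 54.2% of the table was called in either direction. Of the calls, 4 of the 14 rested on a value listed at 0 in FGSCs and 5 of the 7 on a value listed at 0 in SSCs. With the transcripts of each gene ID summed, 20 of the 21 gene IDs passed the filter. Of these, 11 were called higher in SSCs, beside 23.4% of the 11640 gene IDs of the table that passed, and 7 higher in FGSCs, beside 31.1%. Outside the region, chromosome 12 had 107 transcripts called higher in SSCs and 168 higher in FGSCs, of 570 that passed.

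The median difference of the 29 transcripts was 0.90 on the log2(FPKM + 0.5) scale, SSCs minus FGSCs, beside -0.42 over the whole table. The whole-table median moved to -0.04 with equal medians and to -0.10 with quantile normalization. Calls higher in SSCs made up 42.8% of all calls of the table as deposited, 52.2% with equal medians and 55.3% with quantile normalization. Over all 18573 transcripts, 36% had the higher value in SSCs and 64% in FGSCs. In the region this split was 21 transcripts higher in SSCs and 14 higher in FGSCs. Summed over the region, the new transcripts had 29.7 FPKM in SSCs and 18.8 FPKM in FGSCs.

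**Figure D2:**
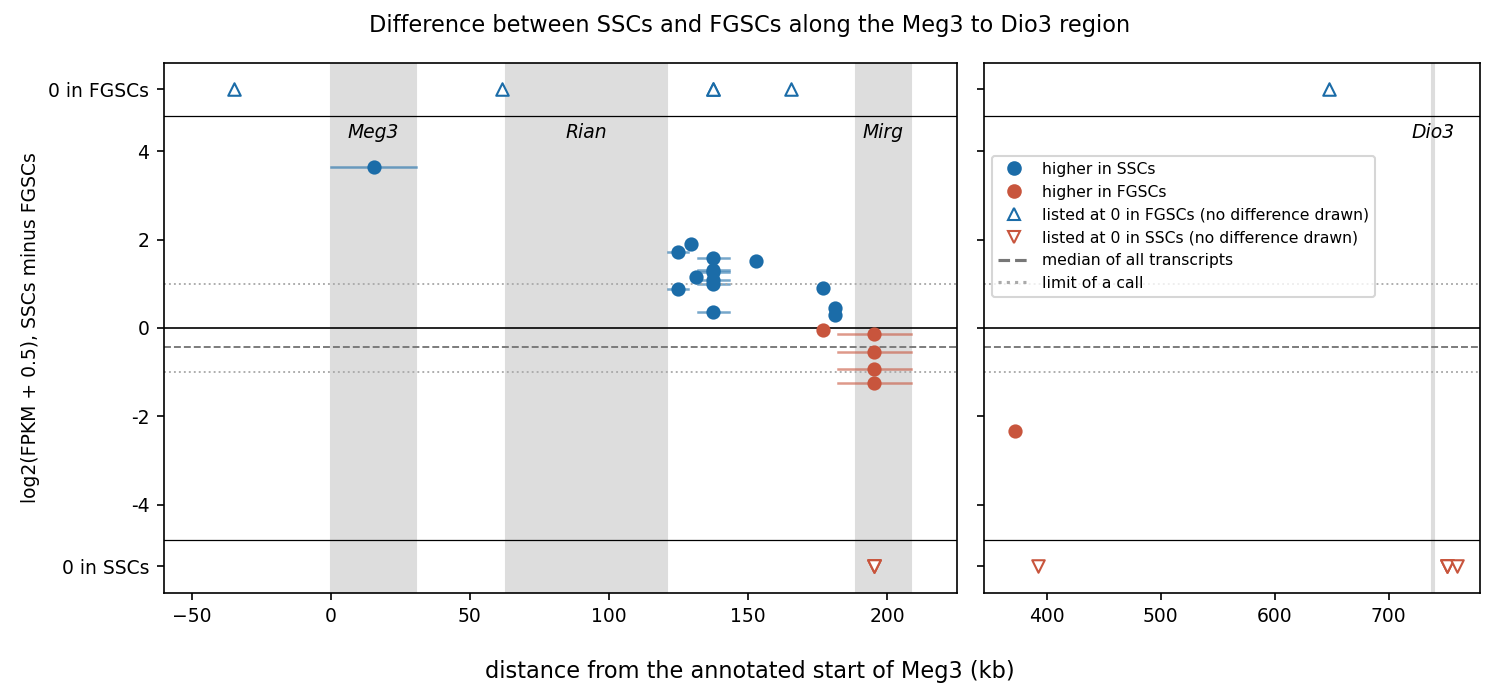
Difference in log2(FPKM + 0.5), SSCs minus FGSCs, against distance in kb from the annotated start of Meg3, with the axis broken between the panels, which have different scales. Lines give the span of the listed locus, grey bands the annotated genes, and open triangles the transcripts listed at 0 in one cell type. For these no difference is drawn, and those of one locus overlie each other. The drawn differences above 0 end at the Mir654 locus, next to Mirg, and TCONS_00034372 past Mirg is an open triangle higher in SSCs.

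The Meg3 part had the highest SSC value of the region. Meg3 is a maternally expressed lncRNA. Its new isoform TCONS_00034198 had 8.18 FPKM in SSCs and 0.191 FPKM in FGSCs, a difference of 3.65 on the log2(FPKM + 0.5) scale and a 42.8-fold ratio. This isoform shared a splice junction with annotated Meg3, and its locus (chr12:109541001-109571726) was that of the annotated gene. The locus also held the miRNA genes Mir1906-1 and Mir770 and the antisense lincRNA Gm26906. The other transcript of the part, TCONS_00036901 within Gm34081, had 2.48 FPKM in SSCs and was listed at 0 in FGSCs. Together they came to 10.7 FPKM for SSCs, against 0.191 FPKM for FGSCs. The Meg3 isoform supplied all of the FGSC value.

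The Rian part was low in FGSCs throughout. Its 14 transcripts ranged over 0.157 to 2.30 FPKM in SSCs (median 0.842) and over 0 to 0.130 FPKM in FGSCs (median 0.0313). The lowest SSC value thus lay above the highest FGSC value. The sums were 13.2 FPKM in SSCs and 0.546 FPKM in FGSCs, a 24.2-fold ratio. Of these transcripts, 11 were called higher in SSCs, 1 passed without a call and 2 fell below the filter. Only TCONS_00034236 lay before Rian, and it had 2.30 FPKM in SSCs and was listed at 0 in FGSCs. The other 13 lay past the annotated end of Rian, between 636 bp and 31760 bp from it.

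Directly past Rian came a locus at chr12:109662352-109669236 with 2 isoforms of one gene ID. TCONS_00034280 had 1.23 FPKM in SSCs and 0.0274 FPKM in FGSCs, a difference of 1.71. TCONS_00034281 had 0.517 FPKM in SSCs, against 0.0497 FPKM in FGSCs, and its difference of 0.89 stayed within the fold limit. Both had FGSC values far below their SSC values. Next came TCONS_00034282 (chr12:109669302-109671726), with 1.58 FPKM in SSCs, against 0.0568 FPKM in FGSCs, a difference of 1.90. TCONS_00034283 (chr12:109672011-109672569) had 0.894 FPKM in SSCs and 0.130 FPKM in FGSCs, a difference of 1.15. The last of these values was the highest in FGSCs within the Rian part. Short gaps, of 65, 284 and 492 bp, separated these loci from each other and from the next one.

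That next locus, chr12:109673062-109684039, held 6 annotated snoRNA genes (Gm23347, AF357428, Gm23736, AF357341, Gm22981 and Gm25856) and the miRNA gene Mir882. C/D box snoRNAs are known to guide methylation of other RNAs, although the targets of many in imprinted clusters are unknown. The locus listed 8 new transcripts under 3 gene IDs. Their summed FPKM was 5.53 in SSCs and 0.205 in FGSCs. This was the second highest locus sum of the region in SSCs.

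The transcripts the table names after Gm23347, a snoRNA gene, had 0.749 (TCONS_00034284) and 1.12 FPKM (TCONS_00034285) in SSCs, against 0.0209 and 0.0353 FPKM in FGSCs. Their differences were 1.26 and 1.59. TCONS_00034288, named after the snoRNA gene Gm23736, had 0.581 FPKM in SSCs and 0.0383 FPKM in FGSCs, a difference of 1.01 and thus just past the limit. TCONS_00034287, with no gene name, had 0.928 FPKM in SSCs and was listed at 0 in FGSCs. All had FGSC values near 0.

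The 4 transcripts named after Mir882 were unequal among themselves. TCONS_00034291 had 0.789 FPKM in SSCs, against 0.0192 FPKM in FGSCs, and TCONS_00034295 had 0.731 FPKM in SSCs and 0.0770 FPKM in FGSCs. Both were called, with differences of 1.31 and 1.09. TCONS_00034290 had 0.481 FPKM in SSCs and was listed at 0 in FGSCs, and TCONS_00034289 had 0.157 FPKM in SSCs and 0.0143 FPKM in FGSCs. These last transcripts fell below the filter. How the authors' software divided reads among the 8 overlapping transcripts was not tested.

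The last Rian-side transcript, TCONS_00034304 (chr12:109693476-109694143), had 1.15 FPKM in SSCs and 0.0770 FPKM in FGSCs, a difference of 1.51. TCONS_00034306 (chr12:109705913-109706864) followed, the first transcript nearer to Mirg than to Rian, with 0.531 FPKM in SSCs and a listing at 0 in FGSCs. It was the last transcript of the region to be called higher in SSCs and lay just inside the filter. Over the 17 transcripts up to this point the sums were 24.4 FPKM in SSCs and 0.737 FPKM in FGSCs, a 33.1-fold ratio. Of the 17, 14 were called higher in SSCs and 5 were listed at 0 in FGSCs.

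The difference was smaller at the Mir666 locus, 10200 bp further on, where the FGSC values were above those of every transcript before it. At chr12:109717065-109718746, TCONS_00034317 had 0.852 FPKM in SSCs and 0.893 FPKM in FGSCs, a difference of -0.04. TCONS_00034318 of the same locus had 0.944 FPKM in SSCs and 0.275 FPKM in FGSCs, a difference of 0.90. The SSC values were of the same size as those past Rian.

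At the Mir654 locus (chr12:109721004-109723358), 2257 bp further on, TCONS_00034323 had 1.02 FPKM in SSCs and 0.736 FPKM in FGSCs. TCONS_00034324 had 0.779 FPKM in SSCs, against 0.432 FPKM in FGSCs. The differences were 0.30 and 0.46. None of the 4 transcripts at the Mir666 and Mir654 loci was called. Their gene sums were almost the same at both loci, 1.80 FPKM in SSCs and 1.17 FPKM in FGSCs. Each sum gave a difference of 0.46.

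The Mirg locus of the table (chr12:109723421-109749460) began 62 bp past the Mir654 locus. It started 6343 bp before the GENCODE start of Mirg and 11560 bp before the RefSeq start, and it held 25 miRNA genes of the GENCODE annotation. Mirg is the host gene of the distal miRNA cluster of the region. All 7 new isoforms shared a splice junction with annotated Mirg and had 1 gene ID. Their sums were 1.40 FPKM in SSCs and 3.89 FPKM in FGSCs, 2.78-fold higher in FGSCs.

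The Mirg isoform with the largest difference, TCONS_00034328, had 0.197 FPKM in SSCs and 1.15 FPKM in FGSCs, a difference of -1.24. It was the only Mirg isoform called, and the first transcript of the region called higher in FGSCs. TCONS_00034330 had the highest values, 0.490 FPKM in SSCs and 1.39 FPKM in FGSCs, with a difference of -0.93 that stayed just within the limit. TCONS_00034334 had 0.266 FPKM in SSCs and 0.621 FPKM in FGSCs, a difference of -0.55. TCONS_00034345 was nearly even, with 0.444 FPKM in SSCs, against 0.531 FPKM in FGSCs. Its difference of -0.13 lay above the whole-table median of -0.42.

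The remaining Mirg isoforms were listed at 0 in SSCs. In FGSCs, TCONS_00034340 had 0.174 FPKM, TCONS_00034342 had 0.0167 FPKM and TCONS_00034343 had 0.00681 FPKM. All 3 fell below the filter. With every isoform of the gene ID summed, the difference was -1.21, past the limit.

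**Figure D3:**
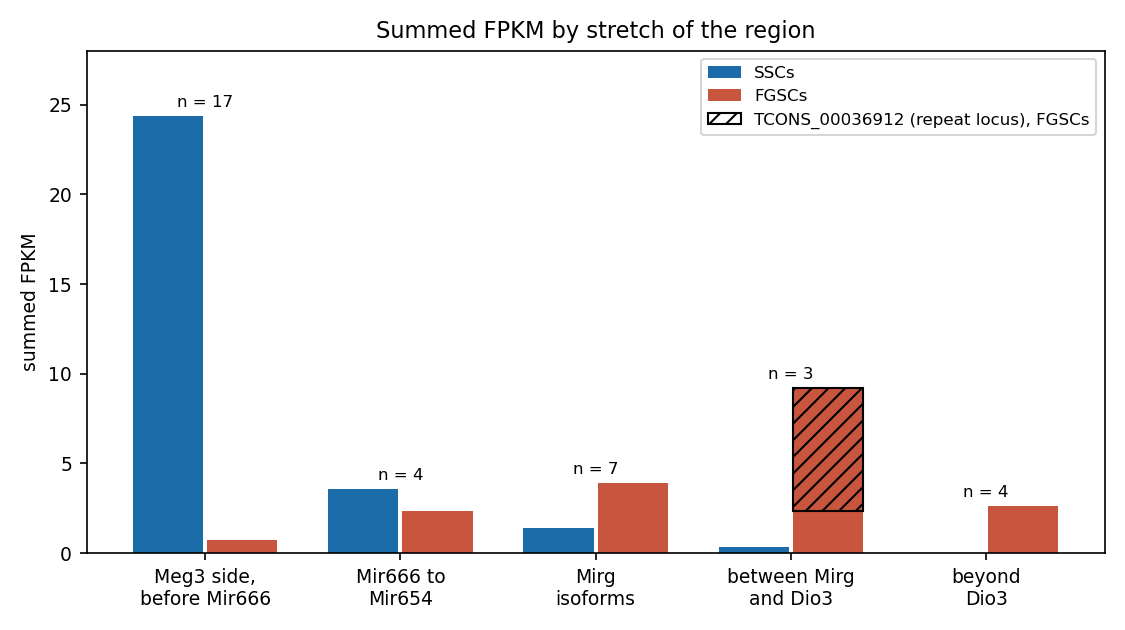
Summed FPKM in SSCs (left bar) and FGSCs (right bar) over 5 stretches of the region in order along the chromosome, with the number of transcripts above each pair. SSCs hold 24.4 FPKM before Mir666 and FGSCs 0.737, while beyond Dio3 SSCs hold 0 and FGSCs 2.64; the hatched share is the transcript in the repeat.

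Past Mirg the next transcripts lay far from any of the 4 genes. TCONS_00034371 (chr12:109911768-109913572), over the annotated lincRNA 4930511J24Rik and 162308 bp past Mirg, had 0.0643 FPKM in SSCs, against 2.33 FPKM in FGSCs. Its difference of -2.33 was the largest toward FGSCs among members above 0 in both cell types. TCONS_00036912 (chr12:109933025-109933345) was listed at 0 in SSCs and had 6.89 FPKM in FGSCs, the highest FGSC value of the region.

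The locus of TCONS_00036912 was wholly repeat-masked and had 810 other similar places in the genome, at 90% identity over 80% of its length. Its reads may therefore not be of this place, and whether they were was not tested. At 321 bp, the locus also lay within the range of fragment lengths that the methods give, and the effect on its FPKM was not tested. TCONS_00036912 supplied much of the FGSC sum of the Mirg part. With it the part came to 5.59 FPKM for SSCs, against 15.4 FPKM for FGSCs (2.76-fold higher in FGSCs). Without it the FGSC sum was 8.56 FPKM, beside the same SSC sum. The log2 ratio of the sums was -1.47 with TCONS_00036912 and -0.62 without it. The latter sum still held the 2.33 FPKM of TCONS_00034371, which also lay far past Mirg. Of the 11 transcripts of the part that passed the filter, 7 were not called. The median difference of the 11 was -0.13, beside -0.42 over the whole table.

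The Dio3 part had values in 1 cell type only for each of its 5 transcripts. Dio3 encodes the deiodinase that inactivates thyroid hormone. TCONS_00034372 (chr12:110188195-110188973), 90095 bp before Dio3 and with a GC content of 64.2%, had 0.303 FPKM in SSCs and was listed at 0 in FGSCs. It fell below the filter and was the only transcript past Mirg with the higher value in SSCs. The 4 transcripts past Dio3 were all listed at 0 in SSCs.

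In FGSCs the 4 transcripts past Dio3 had closely similar values. TCONS_00036916, TCONS_00036917 and TCONS_00036918 shared a locus (chr12:110286527-110298624) that began 5430 bp past Dio3, and each had its own gene ID. Their FGSC values were 0.664, 0.680 and 0.685 FPKM. TCONS_00034374 (chr12:110298910-110302562) had 0.607 FPKM in FGSCs. All lay a little above the filter of 0.5 FPKM, which with a listing at 0 in SSCs makes a call by construction. The sum of the part was 0.303 FPKM for SSCs and 2.64 FPKM for FGSCs.

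Listings at 0 add no pattern of their own along the chromosome. A member listed at 0 in one cell type has, by construction, the higher value in the other. Of the 35 members, 8 were listed at 0 in SSCs, and all of them were Mirg isoforms or lay past Mirg. Another 6 were listed at 0 in FGSCs, and 5 of these lay before the Mir666 locus. Among all transcripts 18.9% were listed at 0 in SSCs and 7.16% in FGSCs. The nearest transcript before the region, TCONS_00034176 at 330723 bp from its limit, had 0.277 FPKM in SSCs, against 0.636 FPKM in FGSCs. The nearest one past it, TCONS_00036920 at 70203 bp, had 1.94 FPKM in SSCs and 0.155 FPKM in FGSCs, a difference of 1.90. Neither neighbour thus had the direction of the end of the region next to it.

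**Figure D4:**
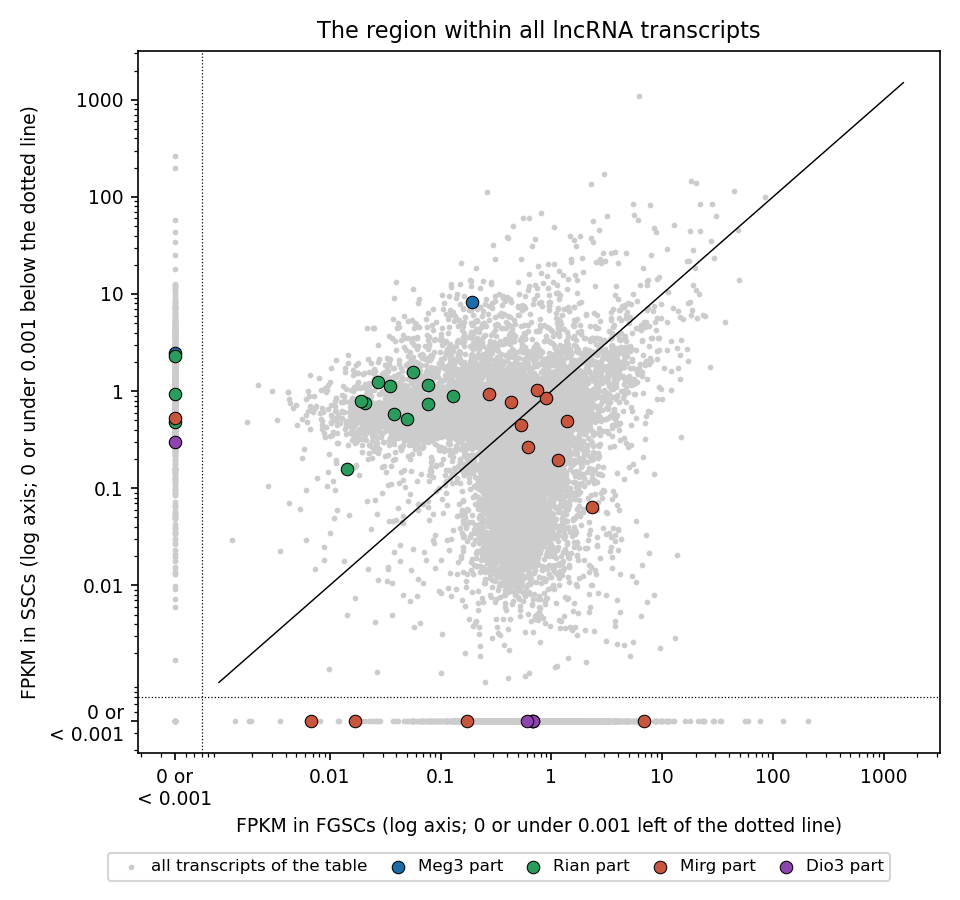
FPKM in SSCs against FPKM in FGSCs on log axes, with all 18573 lncRNA transcripts in grey, the 35 members in colour by part and values of 0 or under 0.001 beyond the dotted lines. The diagonal marks equal values; the Rian part lies above it and at or left of 0.130 FPKM in FGSCs, and the Mirg part lies on both sides of it.

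The class and sequence of the members, which the choice by position did not use, are given as a description with no test, and 8 of the members share the snoRNA locus and 7 the Mirg locus. By the class listed for each transcript, 16 members (45.7%) were intergenic. Another 11 (31.4%) overlapped an exon of an annotated gene without a shared junction. The last 8 (22.9%) shared a splice junction with an annotated transcript. In the whole table these classes made up 86.0%, 1.08% and 4.52%. Members listed as intergenic could still lie over a GENCODE gene, such as TCONS_00036901 in Gm34081 and TCONS_00034371 over 4930511J24Rik. The GENCODE gene Gm37899 past Rian was overlapped by 12 members, of the intergenic and the exon-overlapping class. The exon-overlapping members were those named after snoRNA and miRNA genes, and the junction-sharing members were those of Meg3 and Mirg. The 17 loci had a median GC content of 49.0%, 11.8% repeats, 12.3 CpG per kb and a locus length of 1805 bp, introns included. Over 15007 loci of the table these medians were 44.4%, 22.6%, 9.17 per kb and 1041 bp.

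Not all small RNA genes of the region lay in a locus of the table. Of 67 annotated miRNA genes within the limits, 32 lay in a member locus, and of 23 snoRNA genes, 6 did. None of the 3 protein-coding genes (Dlk1, Rtl1 and Dio3) was overlapped by a member. Within the GENCODE span of Rian, where many of the other snoRNA genes lie, the table had no transcript.

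Lists of other imprinted genes gave few transcripts to set beside the region. Of 13 further genes of the domain and its flanks, the gene column named only Slc25a47 and Slc25a29, mitochondrial carrier genes outside the limits. The transcript antisense to Slc25a47 had 1.40 FPKM in SSCs, against 0.154 FPKM in FGSCs, and that antisense to Slc25a29 had 0.468 FPKM in SSCs and 0.601 FPKM in FGSCs. By position, 12 transcripts lay over Ppp2r5c, a phosphatase subunit gene past the region, and 1 of them was called, TCONS_00034384 with 1.14 FPKM in SSCs, against 0.0727 FPKM in FGSCs. Among 47 imprinted genes elsewhere, 3 named 6 transcripts (Gnas with 2, Grb10 with 3 and Impact with 1). Of the 3 that passed the filter, none was called higher in SSCs and 1 was called higher in FGSCs. That was TCONS_00070309, antisense to Impact, a regulator of translation, with 0.141 FPKM in SSCs, against 1.92 FPKM in FGSCs. With so few transcripts, the region was not compared further with other imprinted genes.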

How the data were processed

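RNA from SSCs and FGSCs was sequenced as 3 strand-specific libraries each. Per the labels and the methods of the study, the authors mapped reads to mm10 with TopHat2 and assembled transcripts with Cufflinks (and Scripture). They kept new transcripts past limits of length, exon number, coverage and coding potential, and computed FPKM with Cuffdiff 2.1.1. The deposited table gives FPKM as 1 value per transcript and cell type, with no library values. The scaling between libraries is not given in the sources used here. Columns of the authors' own comparison (log2 fold change, test statistic, p and q values) were not used.

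The rows were read with Python 3.11.15, pandas 2.3.3 and NumPy 2.4.6, and figures were drawn with matplotlib 3.10.9. Members were all rows within the region, each of which is given or counted. They were assigned to parts by gene column, overlap with GENCODE M21 or the nearest gene. Calls used a pseudocount of 0.5, a log2 limit of 1 and a minimum of 0.5 FPKM in SSCs or FGSCs. They were tried on simulated data with large changes in transcripts of higher FPKM and with little noise. Changes at the low values of most members were not simulated. Starts are 1-based, with 1 added to those of the table. Sequences came from GRCm38.p6 and RefSeq, and similar places were counted with BLAST 2.17.0. Members and gene lists were chosen with earlier results of these data known. Alternatives in pseudocount, filter, scaling, unit of counting and assignment were tried, and a filter above 0 FPKM in both cell types was added after seeing the data.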

Additional observations from a re-analysis of the deposited data

How the results depend on the processing

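Each value rests on 1 number per cell type, so that neither the spread between libraries nor the depth behind a low FPKM is known. No direction of a count, a median or a sum of a part turned under any alternative tried, but several could not have turned. Equal medians raised the SSC values only, so the Meg3 and Rian sums, already higher in SSCs, were bound to stay so. A pseudocount cannot turn the sign of a median over the same members. Leaving out both TCONS_00036912 and TCONS_00034371 from the Mirg part while keeping its other transcripts was not tried. A filter added after seeing the data asked for values above 0 in both cell types. Calls higher in SSCs, 14 as reported, were 16 with a pseudocount of 0.1 and 6 with a pseudocount of 1. They were 7 with a minimum of 1 FPKM and 10 with the added filter. Calls higher in FGSCs, 7 as reported, were 8 with a pseudocount of 0.1 and 2 with a pseudocount of 1. They were 3 with a minimum of 1 FPKM and 2 with the added filter. Of all transcripts, 32.1% were called higher in SSCs and 45% higher in FGSCs under a pseudocount of 0.1. These shares were 10.8% and 9.93% under a pseudocount of 1, 36.8% and 36.4% under a minimum of 1 FPKM, and 19.7% and 19.7% with the added filter. The pseudocounts left 29 members past the filter. The minimum of 1 FPKM and the added filter left fewer, so those counts are not out of 29.

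The median log2 difference, 0.90 as reported, was 2.04 with a pseudocount of 0.1, 0.61 with 1, 0.68 with no filter, 1.55 with a minimum of 1 FPKM, 1.15 with equal medians, 1.10 with quantile normalization, 1.09 with gene IDs summed and 0.95 with the added filter. The log2 ratio of summed FPKM, SSCs over FGSCs, was 5.80 for Meg3, and it was 6.16 with equal medians, 6.49 with quantile normalization and 5.42 by gene column or overlap only. For Rian it was 4.59, with 4.96 under equal medians, 5.61 under quantile normalization and 4.32 without TCONS_00034236. For Mirg it was -1.47, with -1.11 under equal medians, -1.44 under quantile normalization, -1.48 by gene column or overlap only and -0.62 without TCONS_00036912. For Dio3 it was -3.12, with -2.76 under equal medians, -2.70 under quantile normalization and -2.69 without TCONS_00036918. Without its highest transcript the Meg3 part was listed at 0 in FGSCs and gave no ratio. By gene column or overlap only, Rian and Dio3 had no transcript. A pseudocount of 0.1 or 1 cannot turn the direction of a member, since it is added to both values, and direction was not tested by it.

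No paired analysis was possible because the table holds 1 value per cell type and no library values.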
